A study of Mus musculus with 4 samples.

Results

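The 40 genes described here carry a cell from G2 through mitosis to the split into daughter cells. They were chosen by name among the gene names of the array files, with Cdc2a read as Cdk1, and where a gene had several probes the brightest on average was used. All 40 were found among 28149 named genes on the array. The cells were expanding immature granulocytes, sorted after bone marrow of male C57BL/6 mice had been grown for 4 days with GM-CSF, a growth factor for granulocytes and macrophages, at 40 ng/ml. The marrow came from wild-type mice (2 arrays) or from miR-223 knockout mice (2 arrays), and both were cultured and sorted alike. The labels do not give the age of the mice or the allele behind the knockout. They do not say that the 2 samples of a genotype came from separate animals, so p-values measure only the spread between these samples, which may be technical. The array files hold no probe named for miR-223, so its loss was not checked here.

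Entry into mitosis is driven by cyclin-dependent kinase 1 (Cdk1) bound to a B-type or A-type cyclin, helped by the Aurora and Polo-like kinases. The spindle checkpoint holds back the anaphase-promoting complex until every chromosome is attached to the spindle. The complex then marks cyclins and securin for destruction, so that separase can part the sister chromatids. Transcripts of these genes are made mainly in G2 and M, and in the granulocyte lineage division ends as precursors mature. miR-223 is a microRNA of myeloid cells, known for its part in neutrophil numbers and activity. The microRNA lost in the knockout is shown because it is the difference between the groups, with its seed (bases 2 to 8) in capitals.
mmu-miR-223-3p, from RefSeq, GRCm38.p6, chrX:96242884-96242905, plus strand: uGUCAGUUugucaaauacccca
The site complementary to this seed, AACTGAC, occurred in 0 of 67 probe sequences of the mitosis genes and in 0.372% of all 41174 probes. A probe holds only a short stretch of a transcript.

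The promoters of the mitosis genes often held sequence elements already known for genes of this class, so their high share is not independent of the choice of genes. Genes that peak in G2 and M are known for a cell cycle homology region (CHR), a short element bound by the MuvB complexes, and for CCAAT boxes bound by NF-Y. RefSeq promoters (GRCm38.p6), from 250 bases before to 50 after the start, were matched for 33 of the 40 genes, in 35 windows of 300 bases. The CHR was searched as TTTGAA or TTCGAA and the NF-Y box as CCAAT, on both strands. A CHR was present in 27 of 35 windows (77.1%), against 19.2% of all 32851 windows in the table. CCAAT was present in 30 of 35 (85.7%, against 37.4%), and 2 or more copies in 20 of 35 (57.1%, against 11.7%). Both motifs were found in 26 of 35 windows (74.3%), against 7.52% of all windows. A match describes the letters and does not show that a factor binds there.

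**Figure D1:**
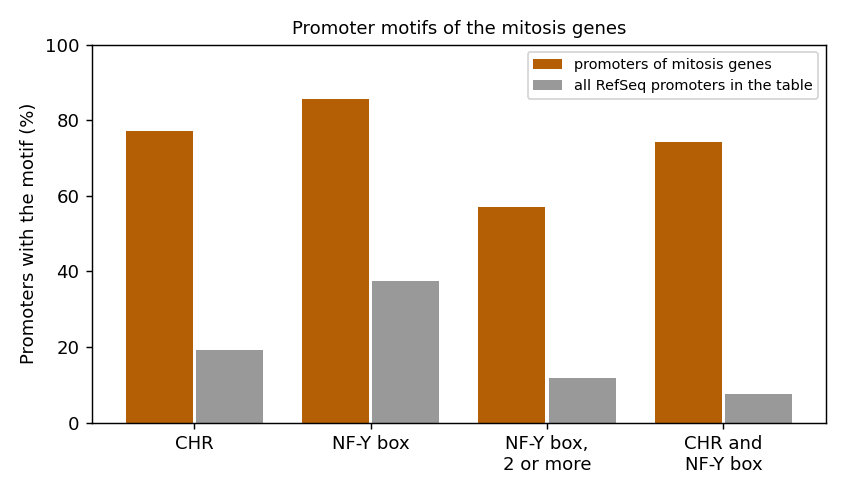
Share of promoter windows of 300 bases that hold each motif, in percent, for the 35 windows of the mitosis genes and for all 32851 windows. The share with both a CHR and a CCAAT box is 74.3% for the mitosis genes and 7.52% for all windows.

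Printed here are the 120 bases before the start for the 6 genes with the smallest p between genotypes among those with a CHR in this stretch, since a shared element is seen best in the letters. CHR and CCAAT matches on either strand are in capitals. Nek2 was added after its values were seen, because it had the largest difference between genotypes. Coordinates are those of RefSeq on GRCm38.p6.
Mki67, chr7:135716380-135716499, minus strand: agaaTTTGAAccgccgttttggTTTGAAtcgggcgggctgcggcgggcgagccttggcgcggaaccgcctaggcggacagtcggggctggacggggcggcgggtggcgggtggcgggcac
Ect2, chr3:27153879-27153998, minus strand: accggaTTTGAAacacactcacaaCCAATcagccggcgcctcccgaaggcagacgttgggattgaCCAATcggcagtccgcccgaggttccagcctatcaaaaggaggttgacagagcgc
Top2a, chr11:99024190-99024309, minus strand: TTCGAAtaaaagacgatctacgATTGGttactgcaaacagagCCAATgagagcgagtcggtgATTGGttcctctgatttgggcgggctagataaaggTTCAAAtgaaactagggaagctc
Kif2c, chr4:117178773-117178892, minus strand: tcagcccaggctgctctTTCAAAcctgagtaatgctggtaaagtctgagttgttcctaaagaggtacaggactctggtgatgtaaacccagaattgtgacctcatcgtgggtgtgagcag
Cdk1, chr10:69352913-69353032, minus strand: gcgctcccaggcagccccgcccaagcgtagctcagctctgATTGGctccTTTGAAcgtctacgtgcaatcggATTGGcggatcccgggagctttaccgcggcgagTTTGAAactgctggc
Ccnf, chr17:24251410-24251529, minus strand: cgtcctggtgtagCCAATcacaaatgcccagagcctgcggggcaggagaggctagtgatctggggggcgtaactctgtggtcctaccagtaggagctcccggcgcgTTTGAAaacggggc
Nek2, chr1:191821353-191821472, plus strand: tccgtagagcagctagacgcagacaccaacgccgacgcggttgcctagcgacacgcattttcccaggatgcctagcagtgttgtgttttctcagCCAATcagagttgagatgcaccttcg
Top2a held 2 CHR and 3 CCAAT matches in these 120 bases, and Cdk1 held 2 of each. Nek2 had 1 CCAAT match in the printed stretch and no CHR match in its window of 300 bases. These CHR letters were also not in the windows of Birc5, Ccnb1, Cenpe, Cks2, Melk, Ncaph and Nusap1.

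Levels are log2 processed intensities minus the 75th percentile of the array, so that 0 is the brightness of that percentile. Of the 40 genes, 39 were well above background on all 4 arrays. Birc5 was so on the 3 arrays where its spot was usable, and it passed the filter on dim probes through wild type, the group where it read higher. All 40 genes were tested, and the mean level of 37 was above 0. The median level over the mitosis genes was 2.21 on wild-type array 1 and 1.93 on wild-type array 2, and on the knockout arrays it was 2.07 and 1.99. Both knockout medians thus lay between the wild-type medians. Levels of different probes depend on the probe and are not set against each other.

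**Figure D2:**
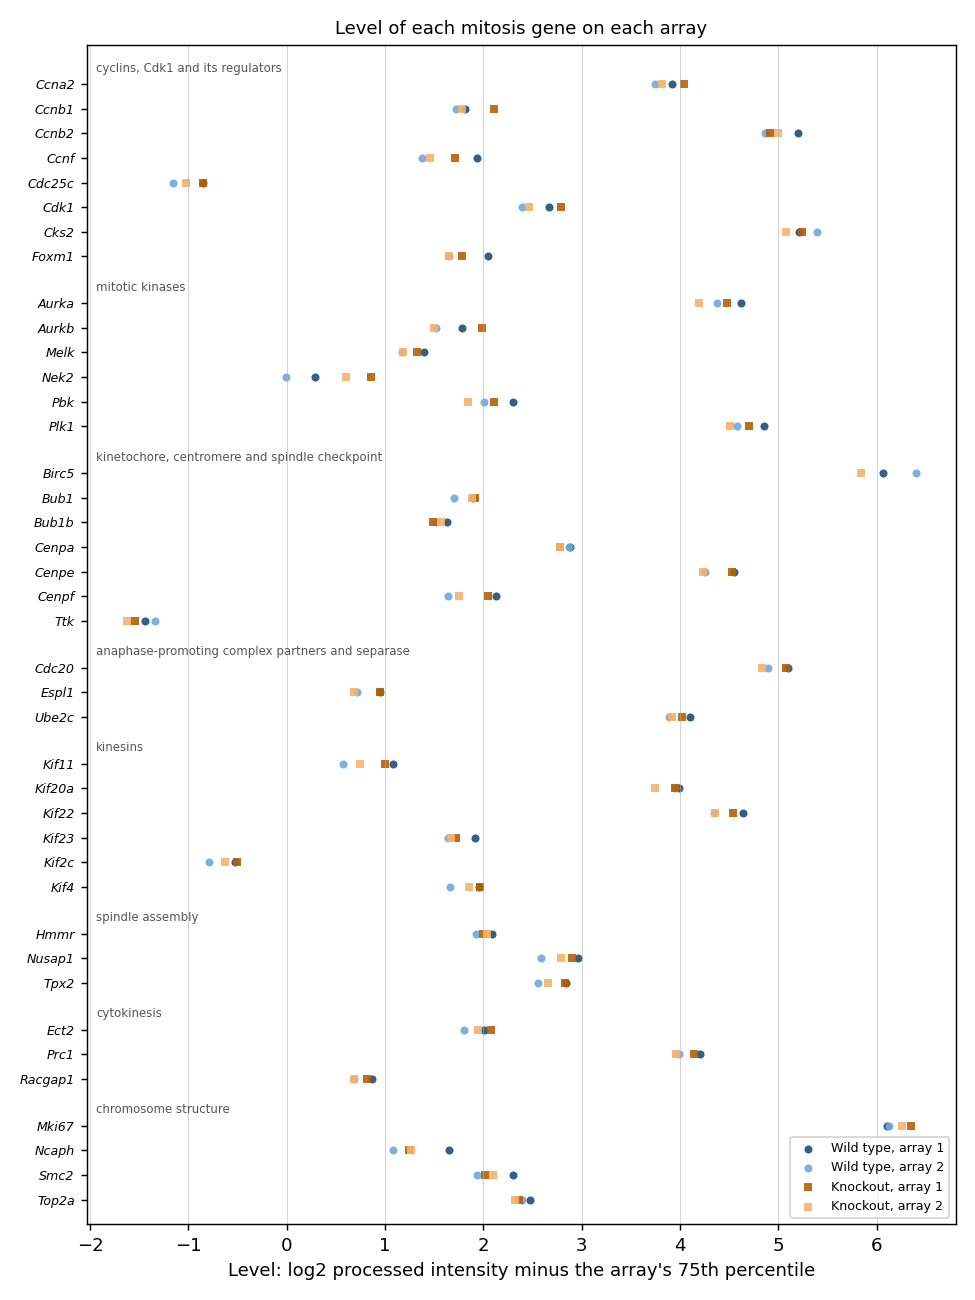
Level of each mitosis gene on each array (log2 processed intensity minus the array's 75th percentile), ordered by role, with the 2 wild-type and the 2 knockout arrays marked apart. The genotypes overlap for all but 6 of the 40 genes, and Nek2 shows the widest space between them.

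No mitosis gene passed the test between genotypes. Differences are knockout minus wild type on the log2 scale with limma's standard error (SE), from 2 arrays per genotype. With limma and Benjamini-Hochberg adjustment over the 16583 genes tested, 0 of 40 had an adjusted p under 0.05, and 0% of all genes tested did. At an unadjusted p under 0.05, 1 mitosis gene was higher in knockout (Nek2) and 0 were lower, against 8.03% and 5.55% of all genes tested. The differences of 38 of the 40 genes were smaller than 0.2 in size (95%), against 53.1% of all genes tested and 66.7% of the 7914 with a mean level above 0. The share was 86.0% for 43 DNA replication genes and 75.5% for 110 further mitosis genes. The median difference was -0.03, against 0.03 for all genes tested. Its sign turned with the arrays used: it was 0.11 without wild-type array 1, -0.13 without wild-type array 2, -0.10 without knockout array 1 and 0.05 without knockout array 2. In RNA of a whole sorted sample, fewer dividing cells and less of these transcripts per cell cannot be told apart.

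The intervals show how large a difference these arrays leave possible. The 95% confidence interval of the difference, taken from limma for each gene alone, lay within 2-fold in both directions for 38 of the 40 genes (95%), against 78.9% of all genes tested. It lay within 1.5-fold for 28 of the 40 genes (70%), against 42.9% of all genes tested. Among genes tested with a mean level above 0 the shares were 93.4% within 2-fold and 62% within 1.5-fold, so both counts are near those of other bright genes. The intervals of Nek2 and Birc5 reached beyond 2-fold.

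**Figure D3:**
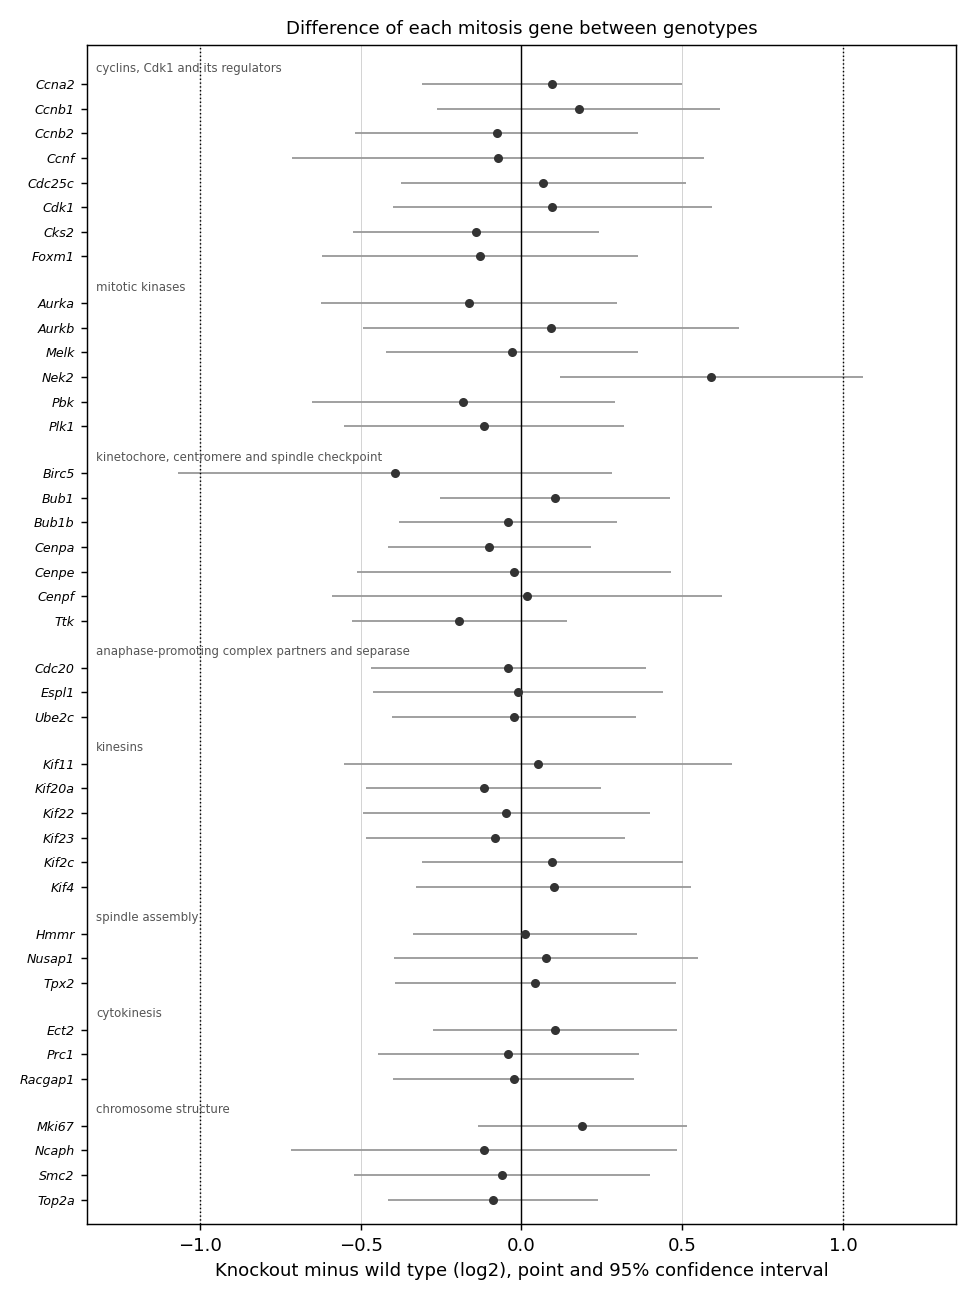
Knockout minus wild type of each mitosis gene (log2), ordered by role, as a point with its 95% confidence interval from limma (n = 2 arrays per genotype, 3 arrays in all for Birc5). Every interval except that of Nek2 includes 0, and those of Nek2 and Birc5 reach beyond 2-fold.

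**Figure D4:**
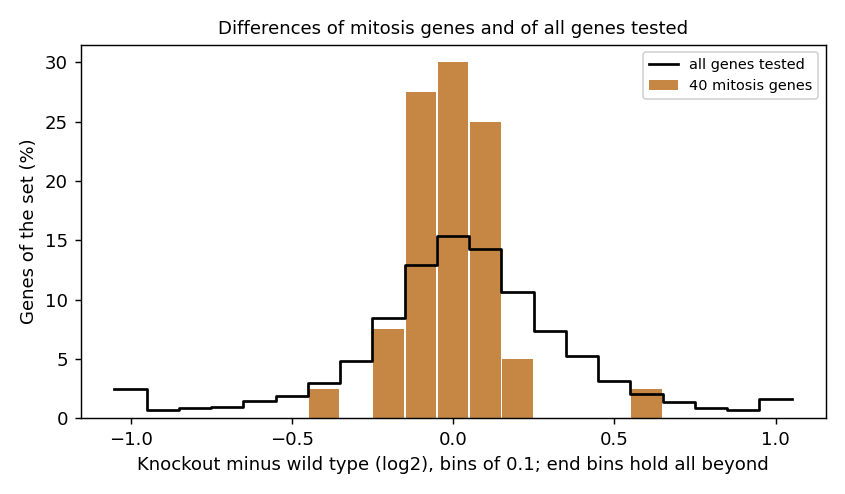
Share of genes, in percent, by knockout minus wild-type difference (log2) for the 40 mitosis genes and for all 16583 genes tested. The mitosis genes lie close to 0, with 38 of 40 inside 0.2 either way, where 53.1% of all genes tested do.

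For 6 of the 40 genes (15%) the arrays of the genotypes did not overlap, against 48.1% of all genes tested and 48.4% of those with a mean level above 0. Nek2 and Mki67 had both knockout arrays above the wild-type arrays (28% of all genes tested), and Ttk, Cenpa, Top2a and Birc5 had the knockout below (20.1%), Birc5 on the 1 knockout array where it was measured. The 2 above and 4 below became 1 and 6 with quantile normalization, 1 and 7 with spike-in scaling, 2 and 7 with normexp and 5 and 4 with the mean over all probes. Shares of all genes tested were not counted under these settings, so these moves are not read as particular to the mitosis genes. In that order the median difference of all genes tested was 0.02, -0.07, 0.0011 and 0.03, against 0.03 in the main fit. With 1 array left out, 15 to 29 mitosis genes did not overlap (38.5% to 74.4%), where all genes tested gave 68.3% to 79.1%. The side followed the array: 24 mitosis genes were higher and 4 lower in knockout without wild-type array 1, and 2 were higher and 27 lower without wild-type array 2. Without knockout array 1 the counts were 2 and 15, and without knockout array 2 they were 11 and 4. For 30 of the 39 genes measured on 4 arrays, the difference between genotypes was smaller than the pooled SD within genotypes (76.9%, against 43.1% of all genes tested).

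Most mitosis genes had the same order of the arrays within each genotype. Wild-type array 1 lay above wild-type array 2 for 36 of 40 genes (90%), with a median gap of 0.25, where 50.8% of the other genes tested did so. Knockout array 1 lay above knockout array 2 for 33 of 39 genes (84.6%), with a median gap of 0.16, against 57.0% of the other genes. Birc5, Cks2, Mki67 and Ttk were the exceptions in wild type. The order was also common in related genes: it held for 70% of 110 further mitosis genes in wild type and 73.6% in knockout. Of 43 DNA replication genes it held for 53.5% in wild type and 79.1% in knockout. Under quantile normalization, spike-in scaling, normexp and the authors' values, the wild-type count was 36 or 37 of 40. The wild-type shares of the other genes were 54.9%, 55.4%, 37.1% and 61.1% in that order. The knockout count was lowest with the authors' values, at 30 of 40, against 46.8% of the other genes. It was highest with spike-in scaling, at 39 of 39, where 12404 of 16542 other genes did the same. Marker lists differed in this order. Of 5 eosinophil markers, 0 had array 1 above array 2 in either genotype. Their median gaps were -1.40 in wild type and -0.33 in knockout. The summed linear level of the 6 on the array was 11.6 and 58.1 in wild type, with both knockout arrays between these values. Of 13 immature granulocyte markers, 5 had array 1 above array 2 in each genotype. Array 1 lay above array 2 for 62.5% of 8 mast cell and basophil markers in wild type and 87.5% in knockout. The shares were 57.1% and 100% for 7 stem and progenitor markers and 80% and 100% for 5 B cell markers. They were 45.5% and 90.9% for 11 dendritic cell markers and 26.7% and 53.3% for 15 macrophage and monocyte markers. They were 25% and 100% for 4 erythroid, 50% and 33.3% for 6 megakaryocyte and 66.7% and 66.7% for 3 T and NK markers. The part of these cells in the order of the mitosis genes was not tested, and the counts describe 4 arrays and carry no test.

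**Figure D5:**
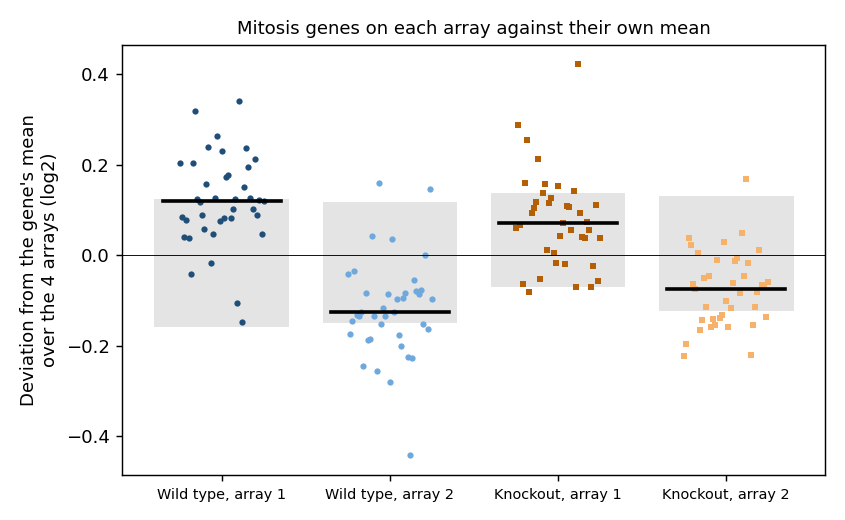
Deviation of 39 mitosis genes from their own mean over the 4 arrays (log2), shown for each array with the median of the mitosis genes and the middle 50% of all genes tested. The medians of the mitosis genes are 0.12 and -0.13 for wild type and 0.07 and -0.08 for knockout.

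Cdk1, its cyclins and regulators were grouped with Foxm1 and Ccnf. In this group 4 of 8 genes had a positive and 4 a negative difference. Spike-in scaling lowered the difference of every mitosis gene measured on 4 arrays by the same amount. Ccna2, Cdk1 and Cdc25c turned negative with it. The arrays overlapped for all 8 genes of this group. Cdk1, the kinase that starts mitosis, was at 2.67 and 2.40 in wild type and at 2.79 and 2.47 in knockout, a difference of 0.10 ± 0.19 (SE). Knockout array 1 was the highest and wild-type array 2 the lowest, so the genotypes interleaved. Ccnb1, the B-type cyclin of that kinase, was at 1.81 and 1.72 in wild type and at 2.11 and 1.78 in knockout. Its difference of 0.18 ± 0.16 came with 1 high array, knockout array 1, and its other probes gave -0.02 and 0.09. Ccna2, the cyclin of S phase and G2, was at 3.92 and 3.75 in wild type and at 4.04 and 3.81 in knockout (0.10 ± 0.15), and Ccnb2, the other B-type cyclin, had a difference of -0.08 ± 0.16.

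The other genes of this group gave differences of the same small size. Cks2, a small Cdk-binding subunit, was at 5.21 and 5.39 in wild type and at 5.24 and 5.08 in knockout (-0.14 ± 0.14). Foxm1, a transcription factor of G2 and M genes, was at 2.04 and 1.65 in wild type and at 1.78 and 1.65 in knockout (-0.13 ± 0.18). In both genes a wild-type array was the highest and the genotypes overlapped. Cdc25c, the phosphatase that activates Cdk1, stood at 0.07 ± 0.17, and Ccnf, an F-box protein of the ubiquitin system, at -0.07 ± 0.24. The adjusted p (limma) of these 8 genes was 0.67 or above.

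Of 6 mitotic kinases, 2 had a positive and 4 a negative difference. Nek2, a kinase that separates the centrosomes before mitosis, was at 0.28 and -0.01 in wild type and at 0.85 and 0.60 in knockout. Both knockout arrays were higher than both wild-type arrays, by 0.59 ± 0.18 (1.51-fold, 95% interval 1.09-fold to 2.09-fold). Its unadjusted p was 0.024 and its adjusted p 0.32 (limma), so it did not pass over all genes. With 1 array left out the difference was 0.44 to 0.74 and the adjusted p 0.20 to 0.77 (limma). The single Nek2 probe lies on chromosome 1 from 193656343 to 193656402 (mm9, the build of the array files).

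Differences of the other kinases were smaller. Plk1, which acts at centrosomes, kinetochores and the midbody, was at 4.86 and 4.58 in wild type and at 4.70 and 4.51 in knockout (-0.12 ± 0.16). Aurka, the kinase of the spindle poles, was at 4.62 and 4.37 in wild type and at 4.48 and 4.19 in knockout (-0.16 ± 0.17). In both genes the genotypes interleaved, with array 1 above array 2 in each. Aurkb, the kinase of the chromosomal passenger complex, stood at 0.09 ± 0.22, with knockout array 1 the highest. Pbk, a mitotic kinase, stood at -0.18 ± 0.18 and Melk, a kinase of dividing cells, at -0.03 ± 0.15.

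Among 7 kinetochore, centromere and checkpoint genes, 2 had a positive and 5 a negative difference. The arrays did not overlap for 3 of the 7 (42.9%, against 48.1% of all genes tested), for Birc5 with 1 knockout array. Birc5, which encodes survivin of the chromosomal passenger complex (probe on chromosome 11 from 117716959 to 117717018, mm9), was at 6.06 and 6.40 in wild type and at 5.84 on knockout array 2. Its spot on knockout array 1 carried an outlier flag, so the fit used 3 arrays and gave -0.39 ± 0.23 (adjusted p = 0.53, limma). With the flagged spot kept, that array read 5.25 and the difference was -0.69, with an adjusted p of 0.37 (limma). Knockout was lower in both readings, and neither passed the test.

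Ttk, the kinase that starts checkpoint signalling, was at -1.44 and -1.34 in wild type and at -1.55 and -1.63 in knockout (-0.19 ± 0.13). Cenpa, the histone H3 variant of centromeres, was at 2.89 and 2.87 in wild type and at 2.78 and 2.78 in knockout (-0.10 ± 0.12). In both genes the arrays of a genotype lay close together and the knockout arrays were lower, with adjusted p of 0.55 and 0.74 (limma). Bub1, a checkpoint kinase, stood at 0.11 ± 0.13 and Bub1b, which encodes the checkpoint protein BubR1, at -0.04 ± 0.13. The kinetochore motor gene Cenpe stood at -0.02 ± 0.18, and its other probes both gave -0.26. For Cenpf, a large kinetochore protein, the difference was 0.02 ± 0.23. Its second probe, dim at -4.81 to -4.00, gave 0.46.

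The 3 genes that act with or after the anaphase-promoting complex were close to 0, below it here and, for Ube2c and Espl1, above it with normexp background correction. Cdc20, which activates the complex, was at 5.10 and 4.89 in wild type and at 5.08 and 4.83 in knockout (-0.04 ± 0.16). Ube2c, its ubiquitin-conjugating enzyme, was at 4.10 and 3.88 in wild type and at 4.02 and 3.92 in knockout (-0.02 ± 0.14). Espl1, separase, was at 0.95 and 0.71 in wild type and at 0.95 and 0.69 in knockout (-0.01 ± 0.17). All 3 kept array 1 above array 2 in both genotypes, and their intervals lay within 1.5-fold.

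Kinesins, the motors that build the spindle and move chromosomes, had differences from -0.12 to 0.10, 3 of 6 positive, of which Kif2c and Kif11 turned negative with spike-in scaling. Kif20a, a motor of cytokinesis, was at 3.99 and 3.94 in wild type and at 3.95 and 3.75 in knockout (-0.12 ± 0.14). Kif4, a chromosome-bound kinesin, was at 1.96 and 1.66 in wild type and at 1.97 and 1.85 in knockout (0.10 ± 0.16). The lowest array was a knockout array for Kif20a and a wild-type array for Kif4, and both genes overlapped. Kif11, which pushes the spindle poles apart, stood at 0.05 ± 0.23, and Kif2c, which removes tubulin from microtubule ends, at 0.10 ± 0.15. Kif23, a subunit of centralspindlin, stood at -0.08 ± 0.15 and Kif22, which moves chromosome arms, at -0.05 ± 0.17.

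The 3 spindle assembly genes had positive differences under 0.1, and all 3 were negative with spike-in scaling. Tpx2, which activates Aurora A at the spindle, was at 2.84 and 2.56 in wild type and at 2.83 and 2.65 in knockout (0.04 ± 0.16). Nusap1, a microtubule-bundling protein, stood at 0.08 ± 0.18, with 0.32 from its second probe, and Hmmr, a hyaluronan receptor that also binds the spindle, at 0.01 ± 0.13. Of 3 cytokinesis genes, Prc1, the crosslinker of the central spindle, was at 4.20 and 3.98 in wild type and at 4.14 and 3.96 in knockout (-0.04 ± 0.15). Ect2, the exchange factor that starts the contractile ring, stood at 0.10 ± 0.14 and Racgap1, a subunit of centralspindlin, at -0.02 ± 0.14. The arrays overlapped for all 6 of these genes.

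Among the genes of chromosome structure, Mki67 and Top2a stood on opposite sides. Mki67, which encodes the proliferation marker Ki-67 (probe on chromosome 7 from 142881591 to 142881650, mm9), was at 6.11 and 6.13 in wild type and at 6.35 and 6.26 in knockout. Both knockout arrays were higher, by 0.19 ± 0.12 (1.14-fold, adjusted p = 0.55, limma), and a second probe gave 0.06. The difference was 0.06 with quantile normalization, 0.09 with spike-in scaling and 0.29 with normexp. Top2a, the topoisomerase that untangles sister chromatids, was at 2.48 and 2.39 in wild type and at 2.37 and 2.32 in knockout. Both knockout arrays were lower, by -0.09 ± 0.12 (adjusted p = 0.78, limma), and other probes gave -0.02 and 0.40. The probe that gave 0.40 was dim, at -5.71 to -4.50. The condensin genes Ncaph and Smc2 stood at -0.12 ± 0.22 and -0.06 ± 0.17, with wild-type array 1 the highest and wild-type array 2 the lowest in both.

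Other probes of the same genes gave a second reading. For 19 genes, 25 further probes passed the filter, and 22 of them differed from the chosen probe by less than 0.25. Larger gaps were found for Cdk1 (-0.21 against 0.10), Cenpf (0.46 against 0.02) and Top2a (0.40 against -0.09). Each of these came from a dim further probe, while the chosen probe read above 0 on every array. The dim probe read -5.62 to -4.95 for Cdk1, -4.81 to -4.00 for Cenpf and -5.71 to -4.50 for Top2a. That of Top2a was well above background on 3 arrays. In 9 of 25 cases the sign differed.

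Further genes of mitosis were taken from 5 lists that do not hold the 40. All 110 were tested and 0 passed over all genes (limma), with 2 higher and 0 lower at an unadjusted p under 0.05, against 8.03% and 5.55% of all genes tested. Their median difference was -0.02. The knockout arrays lay above the wild-type arrays in 19 and below in 25, against 28% and 20.1% of all genes tested. The medians were -0.06 for 37 kinetochore and checkpoint genes and -0.03 for 25 spindle, centrosome and cytokinesis genes. They were 0.04 for 17 condensin and cohesin genes and 0.07 for 15 genes of the anaphase-promoting complex, and with spike-in scaling both turned negative (-0.06 and -0.03). The median of 16 genes of Cdk1 control and G2/M transcription was 0.0033, and it was -0.09 with spike-in scaling, -0.0036 with normexp and -0.02 with the mean over all probes.

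Named from each list are genes whose arrays did not overlap, up to 3 per direction by their p. Cenpn, a centromere protein, was at -0.10 and -0.39 in wild type and at 0.30 and 0.18 in knockout (0.49 ± 0.16, adjusted p = 0.33, limma). Mad2l1, the checkpoint protein that binds Cdc20, was at 2.05 and 1.84 in wild type and at 2.32 and 2.14 in knockout (0.29 ± 0.15). Cdca8, borealin of the passenger complex, was at 5.20 and 5.02 in wild type and at 4.77 and 4.75 in knockout (-0.35 ± 0.13, adjusted p = 0.37, limma). Of the same complex, Birc5 stood at -0.39, with 1 usable knockout array, and Aurkb at 0.09, and none of these 3 genes passed the test. The kinetochore genes Cenpp (0.21), Mis12 (-0.34) and Ska3, named F630043A04Rik on the array (-0.29), completed that list.

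Among condensin and cohesin genes, Ncapg2 (0.26) and Ncaph2 (-0.30), both subunits of condensin II, lay on opposite sides. The cohesin subunit gene Rad21 stood at 0.07, the acetyltransferase gene Esco2 at -0.29 and the cohesin regulator Pds5b at -0.19. Of the anaphase-promoting complex, the genes named were the chain-elongating enzyme Ube2s (0.23), the subunits Anapc13 (0.21), Cdc27 (0.14), Anapc7 (-0.22) and Anapc5 (-0.13), and the inhibitor Fbxo5 (-0.18). Spindle and cytokinesis genes were Cep55 of the midbody (0.32), the kinesins Kif2a (0.12) and Kif18b (-0.18), the spindle pole protein gene Numa1 (0.01) and Cep192 of the centrosome (-0.16).

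In the list of Cdk1 control, Cks1b, the other Cdk-binding subunit beside Cks2, had a difference of 0.44 ± 0.14 (adjusted p = 0.33, limma), with both knockout arrays above. Cdkn1a, the Cdk inhibitor p21, was at 2.05 and 2.26 in wild type and at 1.67 and 1.87 in knockout (-0.38 ± 0.15, adjusted p = 0.39, limma). The phosphatase genes Cdc25b (0.36) and Cdc25a (-0.33) lay on opposite sides. Cdkn3, a phosphatase of Cdks, stood at 0.08 and Pkmyt1, a kinase that inhibits Cdk1, at -0.21.

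DNA replication genes, which act in the preceding S phase, are the nearest group for comparison. Of 43 genes, 2 had both knockout arrays above and 17 both below the wild-type arrays, against 28% and 20.1% of all genes tested. Their median was -0.10, and -0.19 with spike-in scaling. Over all genes 0 passed (limma). At an unadjusted p under 0.05, 1 was higher and 2 were lower, against 8.03% and 5.55% of all genes tested. The mitosis genes had 2 above and 4 below, and the difference between the lists was not tested. Rrm2, a subunit of ribonucleotide reductase, was at 2.76 and 2.91 in wild type and at 3.59 and 3.45 in knockout (0.69 ± 0.14, adjusted p = 0.25, limma). Tyms, thymidylate synthase, stood at 0.15, Cdc6, a loader of the replicative helicase, at -0.37, Rpa2, which covers single-stranded DNA, at -0.36, and Rrm1, the other reductase subunit, at -0.23.

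Markers show which cells the samples held, and 0 of them passed the test (limma). Of 15 markers of immature granulocytes, 13 were found under the names searched, 10 of them with a positive difference and a median of 0.15. Their summed linear level, in multiples of the 75th percentile, was 3677 and 3840 in wild type and 3914 and 4298 in knockout. Of 15 macrophage and monocyte markers, 13 had a negative difference (median -1.07), while their sum was 49.5 and 65.5 in wild type and 59.4 and 63.6 in knockout. Mast cell and basophil markers had 7 of 8 negative (median -1.30), with Mcpt4, Tpsb2 and Cma1 not well above background on any array. Sums over all 11 on the array were 37.4 and 43.8 in wild type and 28.0 and 19.7 in knockout. Dendritic cell markers had 9 of 11 negative (median -0.34) and stem and progenitor markers 6 of 7 (median -0.36). Eosinophil markers, whose sum was highest on wild-type array 2, had 3 of 5 negative. Megakaryocyte markers had 4 of 6 negative. Sums over the 7 on the array were 5.40 and 11.4 in wild type and 3.30 and 3.93 in knockout. Negative differences were found for 3 of 5 B cell markers, 0 of 3 T and NK cell markers and 2 of 4 erythroid markers. Among the defining markers of those lists, Klf1, Alas2, Pax5, Ebf1, Igll1, Cd3g, Ncr1, Klrb1c, Il5ra, Gp1ba and Mecom were not well above background on any array. The part of these cells in the levels of mitosis genes was not tested.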

How the data were processed

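Total RNA of 4 samples was labelled with Cy3 and hybridised to 4 arrays on 1 slide. The deposited intensity of each spot came from Agilent Feature Extraction 10.5.1.1, which, per the file headers, rejected outlier pixels, removed background and spatial trends, and gave dim spots surrogate values, without normalizing between arrays. The authors' deposited log2 values equal the log2 intensity plus a constant per array (99.8% of probes within 0.01), with medians near 5.03. How they were made is not given in the sources used here.

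Spots with an outlier flag were dropped and spots of a probe averaged as log2 values. From each array its 75th percentile was taken off, an intensity of 586 and 486 for wild type and of 514 and 493 for knockout. Between 57.6% and 63.5% of probes were well above background and 0 spots saturated. Precision is limited by having 4 arrays. A gene is a gene name of the array files. The 16583 genes tested had their brightest probe well above background on each array of 1 genotype or more. Genotypes were compared with limma 3.58.1 in R 4.3.3 (two-sided, Benjamini-Hochberg over those genes, threshold 0.05), and the script was tested on simulated data. All 40 genes are named. Of each further list, up to 3 genes per direction with the smallest p among those without overlap are named. Members and lists were chosen with earlier results of these data known. Alternatives were quantile, spike-in and normexp scaling, the authors' values, other filters, the mean of all probes, a replicate block, keeping flagged spots and leaving out each array.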

Additional observations from a re-analysis of the deposited data

How the results depend on the processing

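No mitosis gene passed an adjusted p of 0.05 (limma) under any of the 13 alternatives run; 1 of them, keeping spots with an outlier flag, was chosen after seeing the data. The lowest adjusted p was 0.20, that of Nek2 without wild-type array 1. Over all genes, spike-in scaling called 4 and normexp background correction 5. The median difference of the mitosis genes was -0.12 with spike-in scaling and 0.0013 with normexp, where the median of all genes tested was -0.07 and 0.0011, and it ran from -0.13 to 0.11 with 1 array left out. The count of mitosis genes whose arrays did not overlap was 5 to 9 under the other processings and 15 to 29 with 1 array left out, where 3 arrays leave fewer ways to overlap. For the other processings, the replicate block among them, the share of all genes tested was not counted. Differences near 0 changed sign in 28 of the 40 genes under at least 1 alternative, and in 17 under another processing of the same arrays. With quantile normalization, the value was -0.0020 for Cenpf, -0.0057 for Hmmr. With spike-in scaling, the value was -0.0026 for Ccna2, -0.0013 for Cdk1, -0.029 for Cdc25c, -0.0069 for Aurkb, -0.080 for Cenpf, -0.0012 for Kif2c, -0.047 for Kif11, -0.055 for Tpx2, -0.022 for Nusap1, -0.087 for Hmmr. With normexp, the value was 0.012 for Melk, -0.11 for Cenpf, 0.10 for Ube2c, 0.092 for Espl1, 0.080 for Prc1, 0.012 for Racgap1, 0.0081 for Smc2. With the authors' deposited log2 values, the value was 0.0097 for Espl1. With the mean over all probes, the value was -0.058 for Cdk1, 0.12 for Espl1, 0.10 for Top2a. Dim probes count in this mean: the second Espl1 probe was well above background on 0 arrays. The second Cdk1 probe read -5.62 to -4.95 and 1 Top2a probe -5.71 to -4.50. With 1 array left out, the value ran from -0.24 to 0.088 for Ccnb2, -0.35 to 0.21 for Ccnf, -0.33 to 0.071 for Foxm1, -0.25 to 0.020 for Plk1, -0.14 to 0.081 for Melk, -0.10 to 0.014 for Bub1b, -0.17 to 0.12 for Cenpe, -0.16 to 0.083 for Cdc20, -0.13 to 0.085 for Ube2c, -0.14 to 0.12 for Espl1, -0.20 to 0.10 for Kif22, -0.22 to 0.056 for Kif23, -0.15 to 0.066 for Prc1, -0.11 to 0.064 for Racgap1, -0.40 to 0.17 for Ncaph, -0.24 to 0.12 for Smc2, -0.068 to 0.26 for Cdk1, -0.084 to 0.22 for Cdc25c, -0.15 to 0.33 for Aurkb, -0.23 to 0.26 for Cenpf, -0.033 to 0.23 for Kif2c, -0.052 to 0.25 for Kif4, -0.21 to 0.31 for Kif11, -0.10 to 0.19 for Tpx2, -0.11 to 0.26 for Nusap1, -0.069 to 0.092 for Hmmr, -0.016 to 0.21 for Ccna2. With spike-in scaling the difference of every mitosis gene measured on 4 arrays fell by the same amount. Nek2 went from 0.59 to 0.49, and the median of all genes tested from 0.03 to -0.07. With the authors' values these mitosis genes all rose by a smaller common amount (Nek2 to 0.61). Sign changes under these settings thus mark a shared shift and not single genes. The cause of the other sign changes was not tested. The labels number the replicates of both genotypes 1 and 2 without saying that a number marks a shared animal or day. The gaps between replicates 1 and 2 correlated at 0.18 between genotypes over all genes tested. With the replicate number as a block, 0 mitosis genes were called (limma), their median was -0.02 and the arrays of 5 did not overlap. Birc5 lacks a usable spot on knockout array 1. It therefore has no value with the block or with the filter of well above background on all 4 arrays. It also has none with wild-type array 1, wild-type array 2 or knockout array 2 left out. With 2 arrays per genotype, precision is the limit: 12 of the 40 intervals reach beyond 1.5-fold.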
